A study of Homo sapiens with 4 samples.

Results

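Chromatin loops at the genes for CTCF and 8 cohesin subunits and cofactors were read from Hi-C loop lists of MDA-MB-231 cells, a triple-negative breast cancer (TNBC) line labelled wild type. The cells received DMSO (vehicle) or 75 nM THZ1, a covalent inhibitor of CDK7, for 48 h. Each condition had 2 libraries, described in the series as technical replicates, so every spread given here may be technical and every p-value measures only that spread. A loop was taken as belonging to a gene when at least 1 of its anchors overlapped the gene body extended by 20 kb on each side. This gave 120 loop calls of 77275 in the 4 lists, which joined to 47 distinct loops of 33552 when calls whose anchor midpoints both lay within 20 kb were merged. Genes are the protein-coding ones that GENCODE lists on GRCh37, and the gene start is the 5′ end of the annotated body.

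Cohesin is a ring that extrudes DNA into loops and holds sister chromatids together. SMC3 and RAD21 are parts of the ring, STAG1 is one of its alternative STAG subunits, NIPBL with its partner MAU2 loads it and drives extrusion, and WAPL with PDS5A or PDS5B releases it from DNA. CTCF, a zinc finger protein, binds a directional DNA motif and stops extruding cohesin, so that loops often join a pair of CTCF sites that face each other.

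Sequences at the anchors come first, since loops are commonly anchored at CTCF motifs. The core of the CTCF motif, CCA, 2 bases of any kind, AG, 2 bases of any kind and GGC, 12 letters in all, was searched on both strands of GRCh37. Below are matches in anchors 5 kb wide, with 30 bases read 5′ to 3′ along the strand of the match and the 12 motif letters in capitals. They were chosen for the loops that every library called at the same place, for anchors on a gene start, and, at SMC3 and NIPBL, for an upstream and an intron anchor that several calls share.
STAG1 start anchor, just upstream of the start (chr3:136471240-136471269, minus strand): gcaccgcggCCAGCAGAGGGCggtccggac
STAG1 start anchor, first exon (chr3:136471182-136471211, minus strand): tggaaaatgCCACCAGATGGCgggttagga
STAG1 partner anchor near IL20RB, intergenic (chr3:136730719-136730748, minus strand): accaccccaCCATAAGGGGGCaggaagaga
STAG1 partner anchor near IL20RB, intergenic (chr3:136732895-136732924, minus strand): cagcactgaCCACAAGGTGGCgccagacgc
PDS5A partner anchor, in an exon of LIAS (chr4:39471217-39471246, plus strand): gtatacttaCCAGCAGAGGGCagcttagtc
CTCF start anchor, intergenic (chr16:67595755-67595784, plus strand): ctggggacaCCAAGAGGAGGCcctcccact
SMC3 start anchor, intergenic (chr10:112326559-112326588, plus strand): gaattgtctCCAGCAGCGGGCgggggtggg
SMC3 upstream anchor, intergenic (chr10:112307100-112307129, minus strand): tcatctttaCCACTAGAGGGCggtgaagaa
MAU2 start anchor, in an exon of MAU2 (chr19:19431723-19431752, minus strand): cgccaggtaCCACGAGTCGGCcgcctcggc
NIPBL intron anchor (chr5:36944892-36944921, minus strand): ctgaatagtCCACAAGAGGGCacactttca

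The anchor at the STAG1 start held a pair of matches on the minus strand, and the anchor at the other end of its 260-kb loop held another pair on the same strand. The matches at the far anchor pointed into the loop and those at the STAG1 start pointed out of it, so this was a tandem and not a facing arrangement. The PDS5A partner match in LIAS pointed into the loop, while the PDS5A start anchor of that loop held no match. Neither anchor of the 135-kb NIPBL loop and neither anchor of the 955-kb PDS5B loop held these letters. Among the 40 member loops with 5-kb anchors, counted once for each pair of anchors, 1 had a match in both anchors (2.50%) and 0 had a facing pair, beside 8.50% and 4.75% of the 27817 such loops in the series. A facing pair was found in 0 of 24 member loops at 10-kb anchors, beside 8.95%. At 25-kb anchors it was found in 1 of 17 (5.88%), beside 20.4%. With so few member loops, many sharing anchors, these shares were not tested. Of 47 distinct 5-kb anchors of member loops, 12 held a match (25.5%, exact 95% binomial interval 13.9% to 40.3%). The share was 25.5% over all 29472 anchors of that width, so the members' anchors held these letters about as often as any others. Over all widths the letters lay in 42 of 109 member anchors (38.5%) and in 35.9% of 61322 anchors. A match is a run of letters and not a measured CTCF site.

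The STAG1 promoter was the single one of the 8 member promoters listed in RefSeq that held the 12 letters, beside 2.41% of 35116 promoter windows of 300 bases. It is shown because the start anchor of the STAG1 loop covers it. Another match in that 300-base window begins at base 269, past the start, and is the first-exon match listed above. The 250 bases before the RefSeq start (GRCh38.p14, minus strand, window chr3:136752329-136752628) follow, with the motif letters in capitals. The match in them begins at base 211, and 28 bases lie between it and the start.
STAG1 promoter: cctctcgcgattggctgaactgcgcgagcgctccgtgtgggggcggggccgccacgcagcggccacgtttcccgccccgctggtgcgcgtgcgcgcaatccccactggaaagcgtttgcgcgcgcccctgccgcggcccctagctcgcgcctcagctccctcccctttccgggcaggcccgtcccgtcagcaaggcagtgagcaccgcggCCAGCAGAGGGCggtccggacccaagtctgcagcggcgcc

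The 4 lists, vehicle replicates 1 and 2 and then THZ1 replicates 1 and 2, held 34, 32, 33 and 21 loop calls at the 9 genes. The THZ1 libraries lay on both sides of the lower vehicle library, and only THZ1 replicate 2 was clearly below the others. Vehicle averaged 33 ± 1.41 calls and THZ1 27 ± 8.49 (SD, n = 2 each), a log2 ratio of -0.29 that the exact two-sided permutation test did not separate (p = 0.667, smallest possible 0.33). Without THZ1 replicate 2 the log2 ratio was 0, and without THZ1 replicate 1 it was -0.65. All loops of the lists numbered 20768, 24219, 17222 and 15066 in the same order, a log2 ratio of -0.48. Read depth per library was not in the lists, and the number of calls depends on it.

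**Figure D1:**
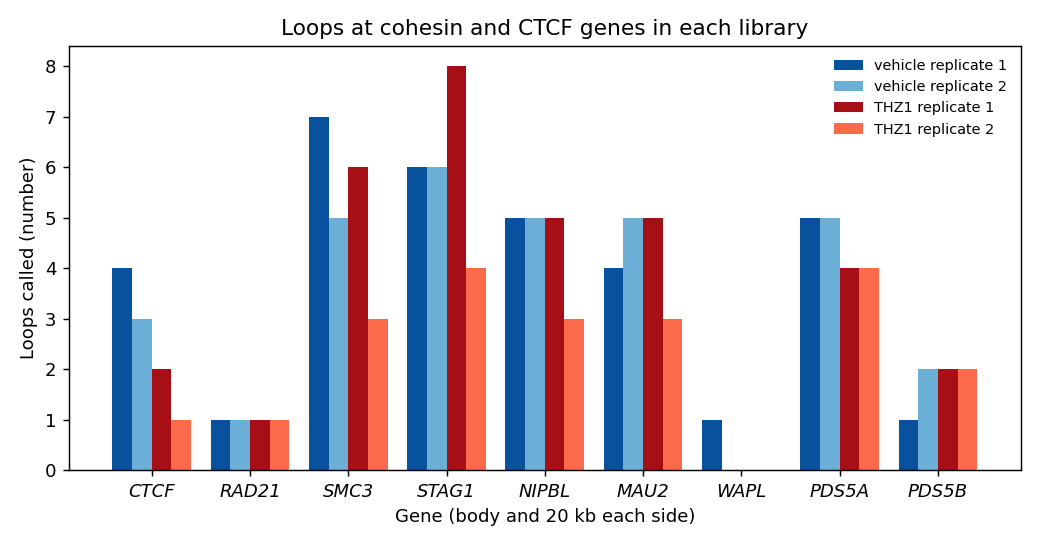
Loops called at each gene (vertical axis, number) in each of the 4 libraries (bars, by colour). CTCF had 4 and 3 calls with vehicle and 2 and 1 with THZ1, RAD21 had 1 call everywhere, and WAPL had 1 call in vehicle replicate 1 only.

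STAG1, SMC3, NIPBL, PDS5A and MAU2 carried most of the calls, while RAD21 and WAPL had a single distinct loop each. By distinct loops the order was STAG1 with 11, SMC3 with 8, MAU2 and PDS5A with 7 each, NIPBL with 5, CTCF with 4, PDS5B with 3, and RAD21 and WAPL with 1. STAG1 also has the longest body of the 9, at 416.2 kb against 28.8 kb for RAD21. Both vehicle counts exceeded both THZ1 counts at 2 of 9 genes, CTCF and PDS5A. At CTCF this order comes from calls: by distinct loops in its window CTCF had 3 and 2 with vehicle and 2 and 1 with THZ1, which overlapped. In calls, the same pattern was found at 28.9% of the 17028 protein-coding genes with a loop, and 2 of 9 is near that background. No member had both THZ1 counts above both vehicle counts (0 of 9), a pattern seen at 3.01% of genes. The other 7 members overlapped between conditions.

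Gene starts were the commonest anchors of the member loops. All 9 genes had a loop anchor on their start in at least 1 library, a count for which the share over all genes was not computed. In all 4 libraries, 5 of 9 (RAD21, STAG1, NIPBL, PDS5A and PDS5B) had one, beside 17.5% of 20098 protein-coding genes. Of these 20098, only 17028 had a loop in any library, while every member had one. Of the 47 distinct loops, 29 had the anchor on the start in at least 1 joined call, 14 elsewhere in the body and 4 in the 20-kb flank. Start-anchored calls made up 58.8% and 62.5% of the member calls with vehicle and 48.5% and 47.6% with THZ1. Over all pairs of a gene and its loops, the shares were 28.3% and 28.7% with vehicle and 24.5% and 24.7% with THZ1. Both the members and all genes had lower shares in both THZ1 libraries, and members were not tested against all genes. At the far end, 20 of the 47 loops met the start of another protein-coding gene, 13 met only the body of one, and 14 met no other protein-coding gene. A start joined another gene's start in 13 loops. A loop was counted when any of its joined calls met a start or body, and wide anchors meet more of them. The same shares over all distinct loops were not computed, so these counts do not set the members apart.

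**Figure D2:**
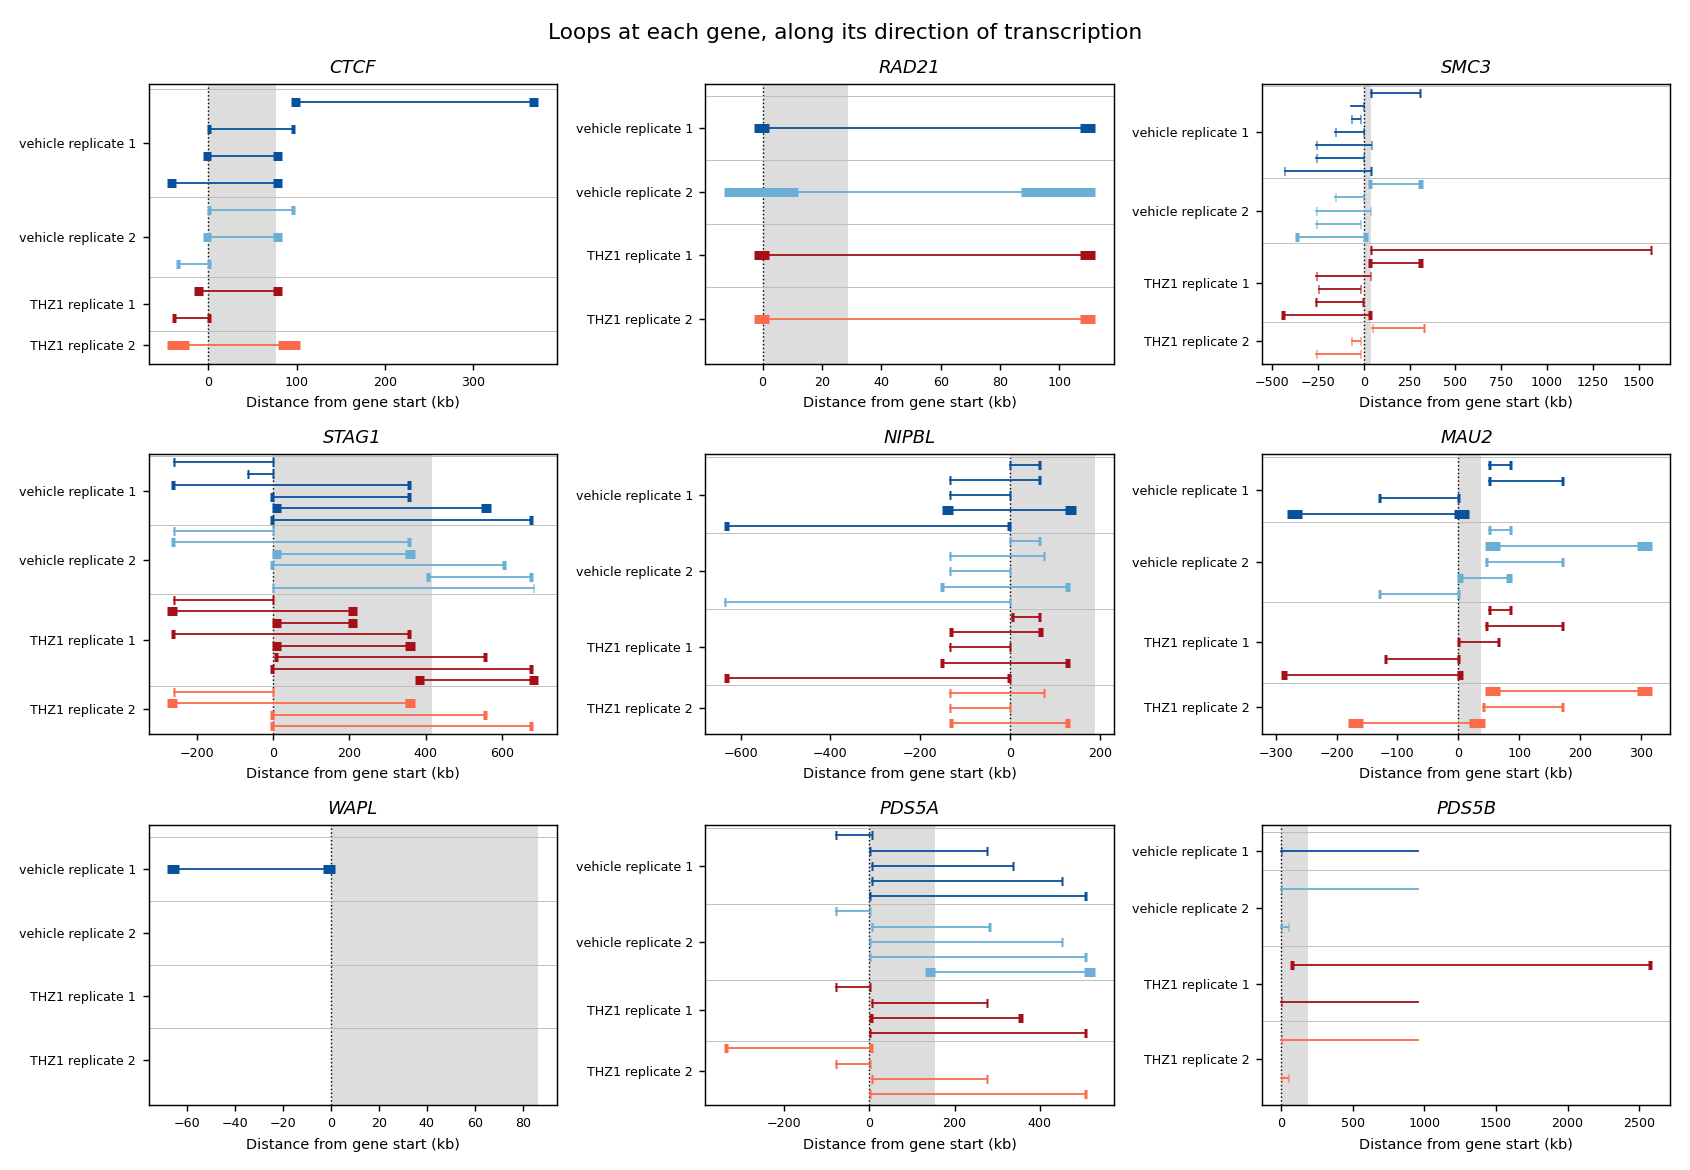
Every member loop call drawn along its gene's direction of transcription (horizontal axis, kb from the gene start; grey, gene body; thick ends, anchors; colours, libraries). STAG1, NIPBL, PDS5A and PDS5B each have a loop that begins within an anchor at the start and keeps its place in all 4 libraries.

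Among the ring subunits, SMC3 (chr10:112327442-112365806, plus strand) had 7 and 5 calls with vehicle and 6 and 3 with THZ1. An anchor beside SMNDC1, a splicing factor gene, met SMC3 at 225 to 260 kb in every library. The SMC3 end of this loop lay on the start in vehicle replicate 1, in the anchor with the minus-strand match 20.3 kb upstream in vehicle replicate 2 and THZ1 replicate 2, and on each in the pair of calls of THZ1 replicate 1. Loop strength is given as observed over donut-expected contacts, and for this loop it was 5.17 and 7.41 with vehicle. It was 3.74 (10-kb anchors) and 2.94 for the pair in THZ1 replicate 1 and 5.88 in THZ1 replicate 2. The donut expectation is the contact number that HiCCUPS, the loop caller, took from the ring of pixels around the loop, and ratios at wider anchors run lower. The end of the SMC3 body met the same SMNDC1 anchor at 295 to 300 kb in vehicle replicate 1 (22 contacts, 7.57), vehicle replicate 2 (22 contacts, 9.26) and THZ1 replicate 1 (31 contacts, 8.70), and the loop was not called in THZ1 replicate 2. The 3′ end of SMC3, or in THZ1 replicate 2 the flank just past it, also met PDCD4, which encodes an inhibitor of translation, at 270 to 280 kb in all 4 libraries. A loop of 155 kb from the SMC3 start to an anchor 82.7 kb from DUSP5, a gene for an ERK phosphatase, was called in both vehicle libraries (26 and 27 contacts, ratios 5.09 and 4.88) and in neither THZ1 library. Its SMC3 anchor carries the match 0.9 kb before the start shown above. A group of short calls to DUSP5 itself was merged from calls of all 4 libraries. In the SMC3 window they measured 45 and 70 kb in vehicle replicate 1 and 45 kb in THZ1 replicate 2. The merged calls of vehicle replicate 2 and THZ1 replicate 1 had their anchors outside that window. Upstream, the SMC3 body met ADD3 at 470 to 475 kb in vehicle replicate 1 and THZ1 replicate 1, and the SMC3 start met that of MXI1, a MYC antagonist gene, at 375 kb in vehicle replicate 2 only. The longest SMC3 loop, 1530 kb toward GPAM, was called in THZ1 replicate 1 only (15 contacts, ratio 8.43).

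RAD21 (chr8:117858173-117887015, minus strand) had a single loop, found in every library. It ran 110 kb from the RAD21 start to an anchor that holds the starts of EIF3H, a translation initiation factor gene, and UTP23, a ribosome biogenesis gene. At 5-kb anchors the loop had 20 contacts in the first vehicle library (ratio 4.94), and THZ1 replicates 1 and 2 had 21 (3.33) and 25 (4.34). Vehicle replicate 2 called it at 25-kb anchors with 135 contacts (2.11), so its strength was not tested across the 4 libraries.

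STAG1 (chr3:136055078-136471245, minus strand) had 6 calls in each vehicle library, 8 in THZ1 replicate 1 and 4 in THZ1 replicate 2. Its start reached in both directions. Upstream it met the anchor 0.1 kb from IL20RB, an interleukin receptor subunit gene, at 260 kb. Downstream, beyond its own end, it met the body of PPP2R3A, which encodes a regulatory subunit of PP2A, at 680 to 685 kb. The PPP2R3A loop had 24, 15, 29 and 25 contacts and ratios of 12.9, 9.08, 9.57 and 8.02 in vehicle replicates 1 and 2 and THZ1 replicates 1 and 2, with 5-kb anchors in vehicle replicate 2 and 10-kb anchors in the others. Another loop called in all 4 libraries joined the STAG1 body 356.24 kb from its start to the IL20RB anchor, over 620 to 625 kb, with ratios of 7.99 and 8.78 in the vehicle libraries, 5.35 in THZ1 replicate 1 and 3.87 at 25-kb anchors in THZ1 replicate 2. The start of MSL2, a ubiquitin ligase gene, was met from the STAG1 start or just inside it at 550 to 560 kb in vehicle replicate 1 and both THZ1 libraries. Within the gene, the STAG1 start met the body at 350 to 360 kb in 3 libraries, with 20 contacts at 10-kb anchors in vehicle replicate 1 (5.82) and 46 and 74 at 25-kb anchors in vehicle replicate 2 and THZ1 replicate 1 (2.73 and 2.998), and at 200 kb in THZ1 replicate 1 only. A 65-kb loop to the SLC35G2 start in vehicle replicate 1 (19 contacts, 3.65) and a 610-kb loop into PPP2R3A and MSL2 in vehicle replicate 2 (19 contacts, 4.78) were the other loops on the start. Of the 11 STAG1 loops, 6 were called in 1 library only, 3 of them in THZ1 replicate 1, vehicle replicate 2 having 2 and vehicle replicate 1 having 1.

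Of the loader genes, NIPBL (chr5:36876871-37066515, plus strand) had 5 calls in each vehicle library, 5 in THZ1 replicate 1 and 3 in THZ1 replicate 2. The 3 anchors inside NIPBL, at its start, in its intron and deeper in its body, met 1 upstream region between 36720001 and 36750000 that holds no protein-coding gene, the nearest being SLC1A3, a glutamate transporter gene. The loop from the intron measured 200 to 210 kb and the deeper one 260 to 280 kb, and all 4 libraries called both. The intron loop had ratios of 3.99 and 4.63 with vehicle and, in THZ1 replicate 2, of 4.06 at 5-kb anchors, which overlapped, and of 3.69 at 10-kb anchors in THZ1 replicate 1. The deeper loop had ratios at 10-kb anchors of 4.57 in vehicle replicate 2 and of 3.96 and 4.14 with THZ1, both lower, and of 3.68 at 25-kb anchors in vehicle replicate 1. A longer loop of 630 to 635 kb joined the NIPBL start to the start of NADK2, a mitochondrial NAD kinase gene, with 19 contacts in vehicle replicate 1 (ratio 5.06), 16 at 5-kb anchors in vehicle replicate 2 (13.2) and 17 in THZ1 replicate 1 (3.49). A loop within NIPBL, from its start or just inside it to the intron 60 to 65 kb away, had 34, 32 and 33 contacts in the same 3 libraries and ratios of 4.02, 3.20 and 2.26. Neither of these loops was called in THZ1 replicate 2.

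MAU2 (chr19:19431638-19469563, plus strand) had 4 and 5 calls with vehicle and 5 and 3 with THZ1. Its start anchor also holds the start of SUGP1, a splicing factor gene, so its loops cannot be assigned to 1 of the pair. From that anchor, vehicle replicates 1 and 2 called a 130-kb loop to the starts of BORCS8, MEF2B and RFXANK (25 and 20 contacts, ratios 6.62 and 4.46), and THZ1 replicate 1 a 120-kb loop to the start of NR2C2AP next to them (25 contacts, 4.32). The same start anchor met the ARMC6 region at 275 to 290 kb in vehicle replicate 1 and THZ1 replicate 1, and GATAD2A at 65 to 80 kb in vehicle replicate 2 (10-kb anchors, 31 contacts, 2.85) and THZ1 replicate 1 (5-kb anchors, 27 contacts, 3.87), which differ in width and cannot be compared. THZ1 replicate 2 called no loop with an anchor on the MAU2 start. The loop present in all 4 libraries lay in the downstream flank, 120 to 130 kb long and ending in GATAD2A, a gene for a subunit of the NuRD complex. It had 24 contacts in both vehicle libraries and in THZ1 replicate 1 and 17 in THZ1 replicate 2, with ratios of 6.94, 8.92, 6.86 and 4.81. A 35-kb loop beside it, also into GATAD2A, was called in 3 libraries with 27, 48 and 31 contacts (3.62, 5.49 and 3.04) and not in THZ1 replicate 2.

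Among the genes for release factors, WAPL (chr10:88195013-88281549, minus strand) had the fewest calls. A 65-kb loop from its start to an upstream anchor without a protein-coding gene was called in vehicle replicate 1 (13 contacts, ratio 5.74) and in no other library.

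PDS5A (chr4:39824483-39979576, minus strand) had 5 calls in each vehicle library and 4 in each THZ1 library. All but 1 of its 7 distinct loops began at its start region, which thus met several genes along the chromosome. The 505-kb loop to the body of LIAS, the lipoic acid synthetase gene, was called in all 4 libraries. So was the 270- to 275-kb loop to UBE2K, a ubiquitin-conjugating enzyme gene, with 17 and 19 contacts with vehicle (ratios 9.90 and 7.28) and 19 and 18 with THZ1 (5.82 and 5.88). An 80- to 85-kb loop joined it to the start of the upstream gene N4BP2, with 22 and 26 contacts with vehicle (5.07 and 6.96) and 28 and 23 with THZ1 (4.39 and 4.00). For the UBE2K and N4BP2 loops the contacts overlapped between conditions, while both vehicle ratios were above both THZ1 ratios. The share of all loops with ratios in this order was not computed. A loop of 445 to 450 kb to the start of UGDH, the UDP-glucose dehydrogenase gene, was called in both vehicle libraries (17 and 18 contacts, 6.69 and 6.31) and in neither THZ1 library. The start of SMIM14 or its body was met in vehicle replicate 1 and THZ1 replicate 1. A 340-kb loop toward CHRNA9 was called in THZ1 replicate 2 only.

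PDS5B (chr13:33160589-33352157, plus strand) had 1 and 2 calls with vehicle and 2 in each THZ1 library. A 955-kb loop from its start, past its own end to an anchor 190.2 kb from STARD13, was called in all 4 libraries. A 50-kb loop from the start into its own body was called in vehicle replicate 2 (20 contacts, ratio 5.70) and THZ1 replicate 2 (17 contacts, 3.37). The longest of all member loops, 2500 kb into NBEA, was called in THZ1 replicate 1 only, at 25-kb anchors with 18 contacts (6.57).

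CTCF (chr16:67596370-67673080, plus strand) had 4 and 3 calls with vehicle and 2 and 1 with THZ1. Its start met the region of CARMIL2, ACD and PARD6A past its own 3′ end. Vehicle replicates 1 and 2 each called this contact as a pair, an 80-kb loop at 10-kb anchors to the CARMIL2 start (38 contacts in each, ratios 2.91 and 2.58) and a 95-kb loop at 5-kb anchors to the starts of ACD, a shelterin gene, and PARD6A, a cell polarity gene (21 and 22 contacts, 6.20 and 5.90). THZ1 replicate 1 called 1 loop of 90 kb nearby (10-kb anchors, 30 contacts, 2.78, between both vehicle ratios at that width), and THZ1 replicate 2 none. THZ1 replicate 2 and vehicle replicate 1 called a loop around the whole gene, 120 to 125 kb from the RIPOR1 start to the CARMIL2 region. A short loop of 35 to 40 kb from the CTCF start to RIPOR1 was called in vehicle replicate 2 (44 contacts, 3.21) and THZ1 replicate 1 (25 contacts, 3.64). A 270-kb loop from the downstream flank was called in vehicle replicate 1 (18 contacts, 5.58). Calls of the other libraries, with anchors outside the CTCF window, were merged with it, so it counts as called in all 4.

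Across all members, 16 of 47 distinct loops (34.0%) were called in all 4 libraries, beside 26.1% of all distinct loops. A distinct loop counted here when any 1 of its joined calls lay in a gene's window, which favours loops called in several libraries. The 16 include the 270-kb CTCF loop, in its window in 1 library only. They also include the short SMC3 calls to DUSP5, in the window in 2 libraries. Of the 47, 2 (4.26%) were called in both vehicle libraries and neither THZ1 library, the SMC3 loop of 155 kb and the PDS5A loop to UGDH, beside 9.67%. None of the 47 was called in both THZ1 libraries and neither vehicle library (0 of 47), beside 2.24%. A single library called 13 of the 47 (27.7%), beside 40.8% of all distinct loops. These shares were not tested against each other.

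**Figure D3:**
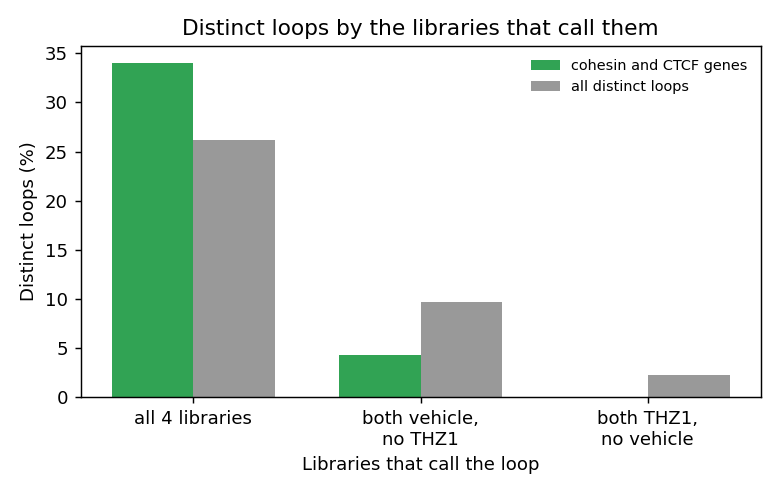
Share of distinct loops (vertical axis, %) called in all 4 libraries, in both vehicle libraries only and in both THZ1 libraries only, for the 47 loops at the cohesin and CTCF genes and for all 33552. The member bars stand at 34.0%, 4.26% and 0, and the bars for all loops at 26.1%, 9.67% and 2.24%. A loop counts at these genes when any of its joined calls lies in a gene's window.

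Strength was tested where every list gave a loop the same anchors, which held for 2619 loops in the genome and 4 at the members, each with 1 anchor on a gene start. With THZ1, 27.5% of the 2619 loops (720) were weaker and 0.0382% (1) stronger by edgeR's quasi-likelihood test at a Benjamini-Hochberg adjusted p of 0.05. Scaled by TMM without an expectation, 109 were weaker and 67 stronger, and no loop passed without vehicle replicate 2, without THZ1 replicate 1 or without THZ1 replicate 2 (0 each). None of the 4 member loops passed it in either direction (0 of 4, and 0 at an unadjusted p under 0.05). DESeq2 called 56 of the 2619 lower and gave none of the 4 an adjusted p.

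The 260-kb STAG1 loop to the IL20RB anchor had 35 and 47 contacts with vehicle and 37 and 34 with THZ1, against donut expectations of 2.59, 3.13, 3.31 and 2.89. Its ratios were 13.5 and 15.0 with vehicle and 11.2 and 11.8 with THZ1, so both THZ1 libraries were below both vehicle libraries. The log2 change of strength by edgeR was -0.32 (SE 0.21, adjusted p = 0.278). Each SE printed with an edgeR change is the size of that change divided by the square root of edgeR's F statistic. It is not a fitted standard error. The 135-kb NIPBL loop had 39 and 45 contacts with vehicle and 33 and 36 with THZ1, against 6.51, 7.78, 7.49 and 7.16 expected. Its ratios of 5.99, 5.78, 4.41 and 5.03 did not overlap between conditions either. The log2 change was -0.32 (SE 0.21, adjusted p = 0.288 by edgeR). The share of all 2619 loops with ratios in the same order was not computed. Their median log2 change was -0.41, further below 0 than at the STAG1 and NIPBL loops.

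The 505-kb PDS5A loop to LIAS had 25 and 33 contacts with vehicle and 26 and 37 with THZ1, against 1.36, 2.30, 2.80 and 2.31 expected. Its ratios of 18.4, 14.4, 9.27 and 16.0 overlapped, with THZ1 replicate 2 between the vehicle libraries. The log2 change was -0.36 (SE 0.26, adjusted p = 0.30 by edgeR), and it turned to 0.014 without THZ1 replicate 1 and to 0.13 when contacts were scaled by TMM without an expectation. The 955-kb PDS5B loop had 16 and 14 contacts with vehicle and 12 and 16 with THZ1, against expectations of 0.802, 1.16, 1.57 and 1.33. Its ratios were 19.9, 12.07, 7.67 and 12.05, with vehicle replicate 1 high, THZ1 replicate 1 low and the remaining pair almost equal. The log2 change was -0.65 (SE 0.29, adjusted p = 0.170 by edgeR). It moved to -0.32 without vehicle replicate 1 and to -1.04 without vehicle replicate 2. It was -0.26 with the bottom-left expectation, -0.08 with TMM and -0.08 with DESeq2 size factors, the latter pair without an expectation.

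The median of the 4 member loops was -0.34, beside -0.41 over the 2619 loops. Scaling by TMM without an expectation brought the median of all loops to -0.01 and that of the members to -0.14. Such scaling centres the loops and drops the expectation together, and with HiCCUPS's bottom-left expectation in place of the donut the medians were -0.43 over all loops and -0.27 at the members. When loops of equal anchor width were matched within 20 kb, 8 member loops entered and 0 passed. All 8 values were below 0, with a median of -0.43 beside -0.37 over 5017 loops. The added loops were the 45-kb SMC3 loop at -0.43, the 120-kb MAU2 loop at -0.42 and the PDS5A loops of 85 and 275 kb at -0.50 and -0.51.

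**Figure D4:**
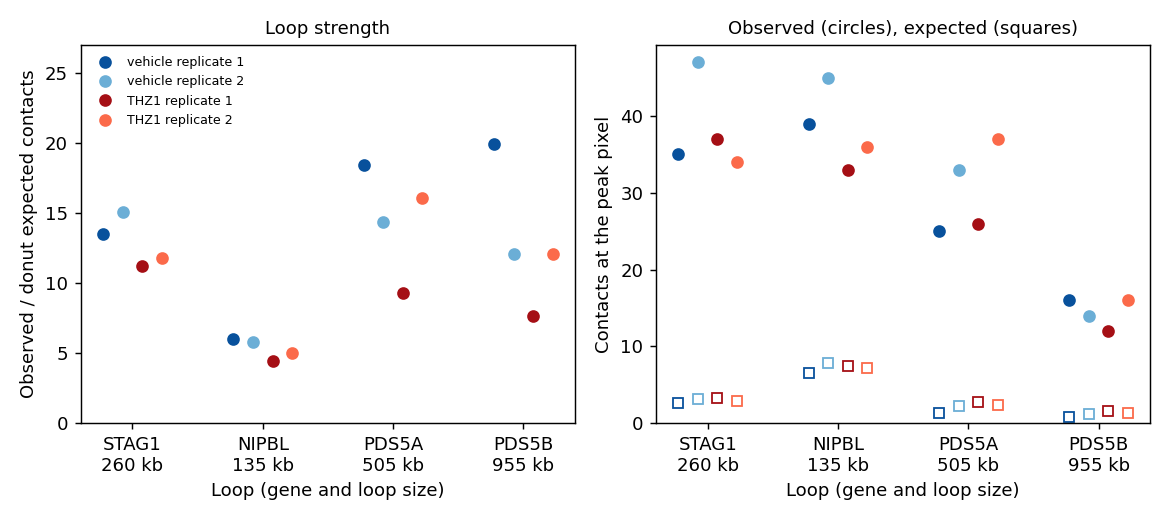
The 4 member loops with identical anchors in all libraries. Left, observed over donut-expected contacts; right, observed (circles) and expected (squares) contacts at the peak pixel, each point being 1 library. In the left panel the THZ1 points lie below the vehicle points for STAG1 and NIPBL and overlap them for PDS5A, while for PDS5B vehicle replicate 2 and THZ1 replicate 2 are almost level at 12.07 and 12.05.

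Over all member calls, the median ratio was 5.24 and 5.39 with vehicle and 3.74 and 4.22 with THZ1, means of 5.32 ± 0.107 and 3.98 ± 0.337 (SD, n = 2; exact permutation p = 0.33, the smallest possible). All loops had medians of 4.60 and 4.60 with vehicle and 4.10 and 4.04 with THZ1. Anchor widths differed between the libraries. Calls at 5 kb were 22 of 34, 20 of 32, 15 of 33 and 12 of 21 in the order above. Among these alone the member medians were 5.86 and 6.64 with vehicle and 4.39 and 4.92 with THZ1, while those of all 5-kb loops were 5.27, 5.20, 5.31 and 5.37. The calls behind these medians were not the same loops in each library, and the difference between members and all loops was not tested.

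Sizes of the member loops ran from 35 to 2500 kb. The medians were 260 and 255 kb with vehicle and 275 and 250 kb with THZ1, means of 257.5 ± 3.54 and 262.5 ± 17.7 kb (SD, n = 2; exact permutation p = 1). The whole lists had medians of 140, 140, 200 and 200 kb in the same order. Short loops, of at most 90 kb, a size the study assigns to subloops, made up 8 of 34, 7 of 32, 6 of 33 and 3 of 21 member calls. Their shares were 23.5% (95% Wilson interval 12.4% to 40.0%), 21.9% (11.02% to 38.8%), 18.2% (8.61% to 34.4%) and 14.3% (4.98% to 34.6%), and these intervals cover counting error only. Both THZ1 shares were below both vehicle shares, with means of 22.7 ± 1.17% and 16.2 ± 2.75% (SD, n = 2; exact permutation p = 0.33, the smallest possible). All loops gave 37.3%, 36.8%, 26.2% and 25.5%. Among member loops with 5-kb anchors the shares were 31.8%, 25%, 33.3% and 25%, which overlapped.

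**Figure D5:**
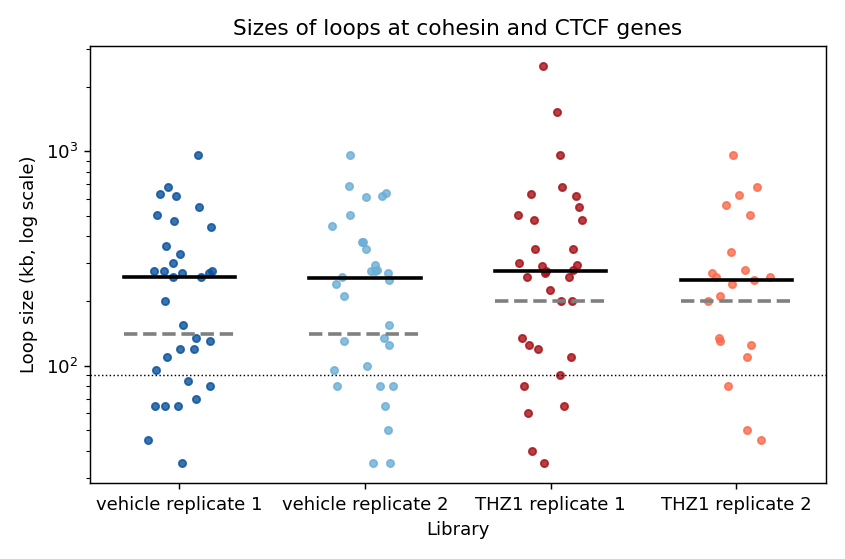
Size of each member loop call (points; vertical axis, kb, log scale) in each library. Black bars mark the member medians of 260, 255, 275 and 250 kb, dashed grey bars the medians of all loops (140, 140, 200 and 200 kb), and the dotted line 90 kb.

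Most of the gene starts lay in no contact domain, as was also the case over all protein-coding genes. Arrowhead, Juicer's domain caller, placed 2 of the 9 starts in a domain in each vehicle library, 1 in THZ1 replicate 1 and 3 in THZ1 replicate 2, beside 15.5%, 18.1%, 28.8% and 28.3% of all protein-coding genes. STAG1 lay whole in a domain of 950 kb in vehicle replicate 1 and of 960 kb in vehicle replicate 2 and THZ1 replicate 2, whose ends lie within 10 kb of its PPP2R3A and IL20RB loop anchors. No domain held the STAG1 start in THZ1 replicate 1. CTCF lay in a 750-kb domain in vehicle replicate 1 and in no domain in vehicle replicate 2. In both THZ1 libraries it lay in the same 150-kb domain (chr16:67540001-67690000). WAPL was in a 190-kb domain in vehicle replicate 2 only, and the SMC3 start in a 260-kb domain in THZ1 replicate 2 only. No domain held the starts of RAD21, NIPBL, MAU2, PDS5A or PDS5B in any library.

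The deposited tables of unique loops, whose contacts are pooled by condition, named 3 loops at the members. Of 989 vehicle-unique loops, 2 were at CTCF and NIPBL. The first ran 80 kb from the RIPOR1 start to the CTCF body (44 pooled contacts, 16.9 expected), and the second 60 kb from the NIPBL flank into CPLANE1, a cilium assembly gene (28 pooled contacts, 10.5 expected). Of 177 THZ1-unique loops, 1 lay within PDS5B over 90 kb (39 pooled contacts, 15.5 expected). None of the 3 matched a call in the list of any single library.

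The other genes of the cohesin pathway gave 23, 25, 18 and 16 calls over 12 genes, including the ring subunit SMC1A, the alternative subunit STAG2 and the acetyltransferases ESCO1 and ESCO2. Their log2 ratio was -0.50, beside -0.29 for the members. Both vehicle counts exceeded both THZ1 counts at 3 of the 12 genes (DDX11, MAZ and ZNF143). This is near the background of 28.9% of the 17028 protein-coding genes with a loop. STAG2, with 1 and 2 calls with vehicle and 2 and 1 with THZ1, had a start-anchored loop in every library, as STAG1 did. SMC1A had the same counts and no loop on its start. The 1 loop of this list that could be tested, 300 kb at HDAC8, had a log2 change of -0.02 and did not pass.

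The 8 condensin genes, which encode the complex that compacts mitotic chromosomes, gave 15, 18, 17 and 11 calls, a log2 ratio of -0.24. Of their 5 tested loops, 2 passed, both lower with THZ1, beside 27.5% of all tested loops. These were a 40-kb loop at NCAPD2 (log2 change -0.78, adjusted p = 0.0159 by edgeR) and a 210-kb loop at NCAPG (-0.87, adjusted p = 0.0326 by edgeR). Neither passed after scaling by TMM, and DESeq2 gave neither an adjusted p. By edgeR, the NCAPD2 loop did not pass without any 1 library (adjusted p from 0.0863 to 0.115). The NCAPG loop was -0.26 (adjusted p = 0.720 by edgeR) without vehicle replicate 2, passed at -1.30 without vehicle replicate 1, and did not pass without either THZ1 library or when loops were matched by width (adjusted p = 0.0861 by edgeR). With 4 member loops and 5 condensin loops, the difference between the lists was not tested.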

How the data were processed

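MDA-MB-231 cells were analysed by Arima-HiC with vehicle or 75 nM THZ1 for 48 h, 2 libraries each. Per the submitters' processing notes and the file headers, the authors used Juicer 1.6 (juicer_tools 1.19.02) and hg19. Settings of the callers are not given in the sources used here. In the deposited loop lists, observed contacts are raw counts at the peak pixel of each loop. Expected contacts, as deposited, are a signal on the same scale, and the deposited FDR columns are q-values from HiCCUPS. The deposited domain score is Arrowhead's corner score, and the authors' tables of unique loops hold pooled counts. The labels and the methods give different formaldehyde concentrations.

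Genes were those of GENCODE 44 lifted to GRCh37, and no anchor of 61322 lay beyond a chromosome end of that build. Loop size was the distance between anchor starts. All loop calls were kept. Loop counts and intervals were computed in Python 3.11.15 (pandas 2.3.3; numpy 2.4.6; scipy 1.17.1) and plots made in matplotlib 3.10.9. Strength was tested with edgeR 4.0.16 in R 4.3.3 on the observed counts of 2619 loops with identical anchors in all 4 lists, with the log of the donut expectation as offset, after 5 loops with an expectation of 0 were left out. DESeq2 1.42.0 was an alternative. The scripts were tested on simulated data. There the strength test recovered 69% of 100 changes of 2-fold and 24% of 100 changes of 1.5-fold. A member loop that did not pass may thus still have changed. Values per library were tested by exact permutation, two-sided, over 6 splits, and shares carry Wilson or exact binomial 95% intervals for counting error only. The depth of the libraries is unknown from the lists, and the number of loops sets the precision of each share. The alternatives were other windows, anchor widths, matching distances, scalings, a stricter FDR, a longer motif and leaving out each library.

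The 9 genes and the other gene lists were chosen with earlier results of these data known. The loops named were those on a gene start, those called in all 4 libraries or in both libraries of 1 condition only, the largest and smallest, and those of the unique tables. Others were chosen after their values were seen. The values of 1 gene of the cohesin pathway list are not reported here.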

Additional observations from a re-analysis of the deposited data

How the results depend on the processing

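Of 70 recomputed summary values, 46 moved by less than the replicate spread or stayed within 1.5 times the main count. Among the 46 are counts of passing member loops that could not differ. There a filter removed no loop, or DESeq2 gave no adjusted p. With 5-kb anchors only, the log2 ratio of member loop numbers was -0.64, the difference in median size -8.75 kb, the difference in the share of loops of 90 kb or less 0.758 percentage points, and 4 genes had both vehicle counts above both THZ1 counts. With 10-kb anchors only, these were 0.093, 27.5 kb, -17.7 points and 0 genes. The main values were -0.29, 5 kb, -6.47 points and 2 genes. Loops of both vehicle libraries only (2) became 1 when matched within 50 kb and 5 with identical anchors, and those of both THZ1 libraries only (0) became 1 with identical anchors. The motif share of 38.5% became 15.6% when the motif was extended by 2 bases of any kind and a T, and 25.5% at 5-kb anchors, where windows are shorter.

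Leaving out each library in turn, the log2 ratio of loop numbers ran from -0.65 to 0, the median size difference from -7.5 to 17.5 kb, the share difference from -8.42 to -4.52 points, the genes with higher vehicle counts from 2 to 6, vehicle-only loops from 2 to 9, THZ1-only loops from 0 to 5, and the THZ1-minus-vehicle number of starts in domains from -1 to 1. With 1 library of a condition left, fewer calls are needed to count as condition-only.

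No member loop passed the strength test under the edgeR alternatives that kept all 4 libraries, with adjusted p from 0.169 to 0.929. DESeq2 gave these loops no adjusted p. Asking for at least 10 contacts in every library removed none of the 2619 loops, so that alternative repeated the main fit. Leaving out a library kept only 1 in its condition, so those fits could not decide whether a member loop passes. The PDS5A loop of 505 kb turned from -0.36 to 0.13 with TMM, 0.14 with DESeq2 size factors and, leaving out 1 library each, ran from -0.77 to 0.014, the latter without THZ1 replicate 1. The cause was not tested. The replicate differences of both conditions had a correlation of r = 0.0175 over 2619 loops. With so few contacts per loop, counting error lowers such a correlation, so it cannot tell whether the replicates were paired. The labels state no pairing. With the replicate block, 0 member loops passed, and 769 loops of all were lower and 1 higher, against 720 and 1. Over all loops, the calls lower and higher were 604 and 0 with the bottom-left expectation, 109 and 67 with TMM, 109 and 71 with DESeq2 size factors, 56 and 0 with DESeq2, and 227 and 0 without vehicle replicate 1. They were 0 and 0 without each of the other libraries, with 699 to 824 at an unadjusted p under 0.05. These 4 loops had 12 to 47 contacts in a library. The SE derived from edgeR's F statistic ran from 0.21 to 0.29 and may understate the counting error. The standard errors that DESeq2 fitted for the same loops were larger, from 0.39 at STAG1 and NIPBL to 0.63 at PDS5B.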
